A study of Mus musculus with 92 samples.

Results

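Fc gamma receptors bind the constant part of immunoglobulin G and couple antibody-coated particles to phagocytosis and cytokine release in macrophages and microglia. In the mouse Fcgr1 encodes the high-affinity activating receptor, Fcgr3 and Fcgr4 encode activating receptors of lower or intermediate affinity, and Fcgr2b encodes the inhibitory receptor, whose cytoplasmic motif recruits phosphatases. The activating receptors signal through the gamma chain encoded by Fcer1g, which other immune receptors also use. The 5 members were chosen by name among the 29956 named genes of the deposited table, and all 5 were present. Results are given in the order activating receptors, inhibitory receptor, shared chain.

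The study made macrophages from ER-Hoxb8 cells, progenitors kept immature by an estradiol-controlled Hoxb8, placed them in mouse brains that lack microglia, and edited such cells at Adar, the gene mutated in a form of Aicardi-Goutières syndrome. The deposited table holds 92 libraries in 25 groups. Their columns fall into 6 normalization sets, each with its own lowest value, and levels were compared only inside a set.

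In the first set (12 libraries, 3 per group) are lineage-depleted bone marrow progenitors and bone marrow monocytes of FVB wild-type mice, together with ER-Hoxb8 progenitors (day 0, grown with estradiol and GM-CSF) and ER-Hoxb8 cells after 4 days in M-CSF. These cells carry the label FVB Cas9, heterozygous. They were immortalized as 3 separate lines, and the labels do not say which line a replicate is. The second set (27 libraries) holds bone marrow-derived (BMD) macrophages of FVB wild-type mice and ER-Hoxb8 macrophages, again FVB Cas9 heterozygous, after 7 days in vitro (3 each), microglia from uninjected FVB wild-type mice (9), and microglia-like cells (MLCs) made from BMD cells (6) or from ER-Hoxb8 cells (6). MLCs are donor cells injected into the brain of newborn Csf1r-/- hosts and sorted back out, and the labels give both kinds as wild type. The gate described for cells from brain takes live single leukocytes by CD45 and CD11b, with GFP also gated, so genes of other cells given below are those still read after it. Names of the ER-Hoxb8 MLC libraries begin with GFPHox (3) or WTHox (3), and whether their cells have the same source as the ER-Hoxb8 macrophages is not given. The third set (11 libraries) holds lines edited from Cas9 heterozygous ER-Hoxb8 cells, as are those of all later sets, with a non-targeting guide (NTC) or labelled Adar1 KO with sgRNA 1, as progenitors (3 each) and as 7-day macrophages (3 labelled Adar1 KO, 2 NTC). A further NTC macrophage library sits alone in a set of its own and entered no comparison. The fifth set (8 libraries) holds lines labelled Adar1 KO with sgRNA 2, as progenitors (3) and macrophages (5). In the sixth set (33 libraries) NTC and sgRNA 1 macrophages were grown for 7 days with the JAK inhibitor baricitinib at 0, 0.0006, 0.016, 0.4 or 10 µM, doses as written in the sample titles (the protocol text writes 0.00064 for 0.0006 µM and 0.16 for 0.016 µM, the latter 10 times apart).

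Values are log2 CPM, reads of a gene scaled to a common library size, as deposited. A gene is called when its limma p, adjusted over every gene tested in that comparison, is below 0.05. A p above that threshold does not show that values were equal. Overlap of ranges is given for the members as a description, without the share of all genes that overlap. In bulk RNA, fewer cells of one type and less RNA per cell cannot be told apart. The p-values measure spread between these libraries, which may be technical where replicates are nearly alike.

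Parts of Fcgr2b and Fcgr3 have the same sequence, so counting could share reads between them. In GENCODE M21 transcripts 233 words of 31 bases occur in both genes, 13.4% of the 1733 words of Fcgr3 and 4.15% of the 5609 words of Fcgr2b, and 8.15% of the Fcgr2b words occur in some other gene. Fcgr4 shares 1.39% of its 1226 words with other genes and 0 with the members. None of the words of Fcgr1 (2588) or Fcer1g (870) occur in another gene. Results for Fcgr2b and Fcgr3 that move together are uncertain to that extent.

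Fcgr1 and Fcgr4 are printed here with their promoters as the members called higher under the Adar1 KO label in macrophages of the third set and, in the separate baricitinib set, called lower under that label from 0 to 10 µM. The RefSeq promoter of Fcgr1 (GRCm38.p6, chr3:96293920-96294219, minus strand, 250 bases before the start to 50 after) holds TTCCTC, the reverse complement of GAGGAA, the PU.1 core. The promoter of Fcgr4 (chr1:171018676-171018975, plus strand) holds GAAAAGGAA, a fit to GAAANNGAA, the core of interferon-stimulated response elements, and TTCCTC. Either strand of the 32851 promoters read holds GAAANNGAA in 8.56% and GAGGAA in 28.3%. Both overlapping Fcgr3 promoters hold TTCCTC alone, and those of Fcgr2b and Fcer1g hold neither motif, although Fcgr2b was called higher under the KO label at every baricitinib dose. Such matches are descriptions and show no binding. Capitals mark the motif matches in the 2 sequences below.

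Fcgr1: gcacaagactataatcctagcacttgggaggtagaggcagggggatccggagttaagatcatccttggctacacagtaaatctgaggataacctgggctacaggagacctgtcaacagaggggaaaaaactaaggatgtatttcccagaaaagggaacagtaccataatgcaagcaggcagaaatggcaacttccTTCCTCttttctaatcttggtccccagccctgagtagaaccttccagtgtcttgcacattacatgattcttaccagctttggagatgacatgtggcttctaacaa

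Fcgr4: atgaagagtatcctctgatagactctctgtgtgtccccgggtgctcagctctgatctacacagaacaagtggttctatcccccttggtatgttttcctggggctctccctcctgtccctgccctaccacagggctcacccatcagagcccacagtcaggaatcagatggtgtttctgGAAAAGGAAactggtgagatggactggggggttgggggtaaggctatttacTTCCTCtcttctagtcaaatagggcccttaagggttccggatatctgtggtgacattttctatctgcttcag

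Marrow monocytes had 4 of 5 members, all but Fcgr4, called higher than marrow progenitors, and leaving out marrow progenitor replicate 1 ended all 4 calls. ER-Hoxb8 cells carried more of all 5 members than marrow progenitors did while still on day 0. After 4 days in M-CSF no member was called against day 0, and Fcgr1 alone was called against marrow monocytes.

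Fcgr1 was at -1.87, 0.23 and -0.30 in marrow progenitors, at 2.19, 2.13 and 2.88 in monocytes, at 5.89, 6.13 and 2.92 in ER-Hoxb8 progenitors and at 4.95, 6.21 and 5.48 on day 4. It was low in marrow progenitors and high in ER-Hoxb8 cells, without overlap between marrow and ER-Hoxb8 cells. Fcgr4 was at -1.26, 1.23 and -1.25 in marrow progenitors, 0.45, 2.74 and 1.71 in monocytes, 4.91, 5.13 and 2.48 in ER-Hoxb8 progenitors and 5.02, 5.19 and 2.12 on day 4. Its levels were low in marrow and moderate in ER-Hoxb8 cells, monocytes overlapped both marrow progenitors and ER-Hoxb8 cells, and replicate 3 of the latter was lowest at both times. Fcgr3 was moderate in marrow progenitors (5.42, 6.54 and 6.36) and high in monocytes (8.90, 9.40 and 9.18), with no overlap. The inhibitory Fcgr2b was at 4.70, 5.96 and 5.67 in marrow progenitors, 7.28, 7.75 and 7.56 in monocytes, 9.56, 8.75 and 7.66 in ER-Hoxb8 progenitors and 8.30, 8.87 and 7.79 on day 4. Marrow progenitors were again lowest, below every other library of the set. Fcer1g ran from 6.50 to 7.61 in marrow progenitors and from 9.65 to 10.26 in monocytes, apart in every library.

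**Figure D1:**
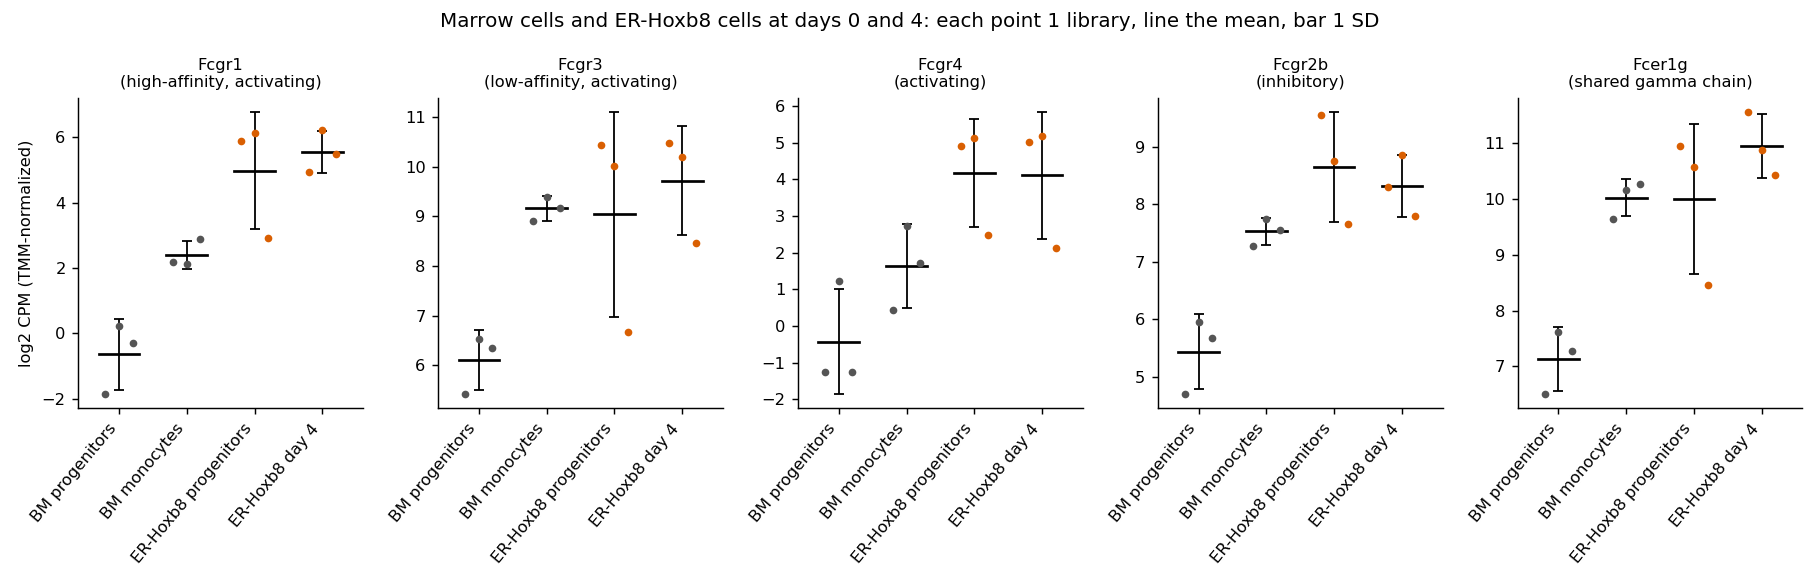
Values of the 5 members in every library of the marrow set. Fcgr1 lies between -1.87 and 0.23 in marrow progenitors and between 2.92 and 6.13 in ER-Hoxb8 progenitors.

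In monocytes over marrow progenitors 4 of 5 members were called higher, beside 13.8% of all genes tested, and the median log2 fold change was 2.89 for the members against -0.09 for all genes. Fcgr1 was higher by 3.05 (SE 0.80, n 3 and 3, adjusted p 0.0284), 8.25-fold. Fcgr3 was higher by 3.06 (SE 0.85, n 3 and 3, adjusted p 0.0351). For Fcgr4 the difference of 2.06 (SE 1.03, adjusted p 0.205) was not called, nor were 2.89 without marrow progenitor replicate 2 and 2.65 without monocyte replicate 1. The inhibitory Fcgr2b was higher by 2.09 (SE 0.47, n 3 and 3, adjusted p 0.0152). Fcer1g was higher by 2.89 (SE 0.58, n 3 and 3, adjusted p 0.00858). All 4 called members were higher in each of the 3 monocyte libraries than in any progenitor library, beside a share of all genes that is not given here.

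Those calls rest on few libraries. Leaving out marrow progenitor replicate 1 ended all 4, with Fcgr1 at 2.43 (adjusted p 0.127), Fcgr2b at 1.72 (0.0806), Fcgr3 at 2.71 (0.145) and Fcer1g at 2.58 (0.0502). The Fcgr3 call also ended without marrow progenitor replicate 2 (3.27, 0.0691) or 3 (3.18, 0.0881), or monocyte replicate 1 (3.19, 0.0766), 2 (2.94, 0.106) or 3 (3.05, 0.0931). Fcgr1 lost its call without marrow progenitor replicate 3 (3.22, 0.0739) or monocyte replicate 1 (3.15, 0.0676), 2 (3.18, 0.0707) or 3 (2.81, 0.0947). Fcgr2b lost its call without monocyte replicate 2 (1.98, 0.0611) or 3 (2.07, 0.052). A pseudocount of 1 ended the Fcgr1 call (1.91, 0.0737) and leaving out the filter the Fcgr3 call (3.06, 0.0588).

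Against marrow progenitors, ER-Hoxb8 progenitors had all 5 members called higher, beside 25.5% of all genes tested, with a member median of 3.21 and an all-gene median of -0.08. Fcgr1 was 49.5-fold higher (5.63, SE 0.80, n 3 and 3, adjusted p 0.000342). Fcgr4 was 24.2-fold higher (4.60, SE 1.03, n 3 and 3, adjusted p 0.00683). Fcgr3, at 10.44, 10.01 and 6.67 in ER-Hoxb8 progenitors, was higher by 2.94 (SE 0.85, adjusted p 0.0244). Fcgr2b was higher by 3.21 (SE 0.47, n 3 and 3, adjusted p 0.000443). Fcer1g, at 10.95, 10.58 and 8.46 there, was higher by 2.87 (SE 0.58, adjusted p 0.00371). For none of the 5 members did a library of one group reach into the other, and the share of all genes so separated is not given here. The Fcgr3 call ended without marrow progenitor replicate 1 (2.59, adjusted p 0.0939) or 3 (3.06, 0.0598), without ER-Hoxb8 progenitor replicate 1 (2.24, 0.1) or 2 (2.45, 0.068), and with the 2 groups fitted by themselves (2.94, 0.0873). ER-Hoxb8 progenitor replicate 3 held the values down, since without it Fcgr1 was higher by 6.66, Fcgr4 by 5.44, Fcgr3 by 4.12 and Fcer1g by 3.63, all called. Without marrow progenitor replicate 1 Fcgr1 was higher by 5.02, and without replicate 2 Fcgr4 by 5.43.

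Day 4 over day 0 of ER-Hoxb8 cells gave 0 of 5 members called, beside 0% of all genes, and limma put 1129 genes at an unadjusted p below 0.05. Fold changes ran from -0.33 (Fcgr2b) to 0.95 (Fcer1g), with a member median of 0.57 and an all-gene median of -0.01. Ranges overlapped for every member, and ER-Hoxb8 progenitors differed widely among themselves. Without their replicate 3 Fcgr1 (-0.46), Fcgr3 (-0.50) and Fcgr4 (-0.91) were lower on day 4 and Fcer1g was at 0.19. Without day 4 replicate 3 Fcgr4 was at 0.93 and Fcgr3 at 1.30, and without ER-Hoxb8 progenitor replicate 1 Fcgr3 was at 1.38, none of them called.

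Over marrow monocytes, day 4 had 1 of 5 members called higher, beside 17.5% of all genes tested, with medians of 0.93 for members and -0.01 for all genes. Fcgr1 was 8.89-fold higher (3.15, SE 0.80, n 3 and 3, adjusted p 0.0182). Its call ended without monocyte replicate 1 (3.05, adjusted p 0.0621) or 2 (3.02, 0.0644) or day 4 replicate 2 (2.82, 0.0666). Fcgr4 differed by 2.48 (adjusted p 0.132) with overlap, by 1.88 without monocyte replicate 1, and was called without day 4 replicate 3 (3.47, adjusted p 0.043), where Fcgr3 went from 0.56 to 1.19 without a call. Fcgr2b (0.79, adjusted p 0.3) and Fcer1g (0.93, adjusted p 0.325) were not called although no day 4 library reached down to a monocyte library.

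Ordered by mean, marrow progenitors were last for every member, and only for Fcgr4 did they overlap the group above. Fcgr1 ran from day 4 through ER-Hoxb8 progenitors and monocytes to marrow progenitors, with overlap only between the ER-Hoxb8 groups. Fcgr2b ran from ER-Hoxb8 progenitors through day 4 and monocytes to marrow progenitors. The ER-Hoxb8 groups overlapped, and the lowest ER-Hoxb8 progenitor library (7.66) lay below the highest monocyte library (7.75). In the order for Fcgr3, day 4 was followed by monocytes and ER-Hoxb8 progenitors, all overlapping. Fcgr4 ran from ER-Hoxb8 progenitors through day 4 and monocytes to marrow progenitors, each overlapping the next. Fcer1g ran from day 4, clear of monocytes, to ER-Hoxb8 progenitors, which overlapped monocytes and day 4.

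Other cells in marrow differ between these groups and carry Fc receptors of their own. Among 8 neutrophil genes tested all 8 were called lower in ER-Hoxb8 progenitors than in marrow progenitors (median -7.21), as were all 5 B cell genes (-8.71), all 5 NK genes (-8.02) and all 5 mast cell and basophil genes tested (-8.34). Summed neutrophil RNA was 6550, 19600 and 23200 CPM in marrow progenitors, Mpo the most abundant, and 53.4, 47.6 and 2770 CPM in ER-Hoxb8 progenitors, where replicate 3 stood apart. Of the macrophage identity genes Emr1, Cd68 and Mertk were called higher in ER-Hoxb8 progenitors, 3 of 9 tested (median 2.7), and summed 460, 2110 and 6070 CPM there against 192, 243 and 263 CPM in marrow progenitors. In monocytes over progenitors 2 of 9 identity genes, Emr1 and Spi1, were called higher (median 2.98), while 0 of 8 neutrophil genes were called (0.21) and 4 of 5 B cell genes were lower (-4.03). Monocyte libraries still held 5400 to 15100 CPM of neutrophil genes. The part of these cells in the member values was not tested.

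Among the signalling genes, 6 of 16 activating ones were called higher in monocytes than in marrow progenitors (Lyn, Plcg2, Vav1, Lcp2, Pik3cg and Card9, list median 1.25) and 3 of 8 inhibitory ones (Ptpn6, Dok3 and Cbl, 0.35). In ER-Hoxb8 over marrow progenitors the counts were 4 higher and 1 lower of 16 (0.27), and 2 higher of 8 (0.25). Of all genes tested 13.8% were called in monocytes over marrow progenitors and 25.5% in ER-Hoxb8 over marrow progenitors. Of 8 other Fc receptors tested, Fcgrt was called higher and Fcer1a, Ms4a2, Fcrl1 and Fcrla lower in ER-Hoxb8 progenitors (median -3.46).

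In the brain set Fcgr1 was high in all 3 kinds of cell taken from brain and lower in both cultured macrophages. Cells from brain were dissociated, sorted into TRIzol and extracted with a different kit, while cultured macrophages were lysed in the dish. Location and this handling cannot be told apart, and a brain effect below means only the difference from culture. Fcgr4 was high in ER-Hoxb8 MLCs alone and lowest in microglia. Fcgr2b was highest in BMD MLCs and lowest in microglia. Fcgr3 and Fcer1g were abundant in every group and moved least.

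Fcgr1 was at 5.19, 2.39 and 5.93 in BMD macrophages and at 5.20, 5.60 and 3.87 in ER-Hoxb8 macrophages. In brain its lowest, median and highest values were 7.00, 7.76 and 8.16 in BMD MLCs, 7.43, 8.67 and 9.70 in ER-Hoxb8 MLCs and 7.51, 8.24 and 8.87 in microglia. Every brain library was above every cultured library, and the 3 brain groups overlapped. Fcgr4 was at 3.65, 5.05 and 2.53 in BMD macrophages and 4.85, 3.85 and 5.47 in ER-Hoxb8 macrophages. Its lowest, median and highest values were 2.57, 3.79 and 4.25 in BMD MLCs, 6.41, 7.68 and 8.31 in ER-Hoxb8 MLCs and -1.55, 1.71 and 2.84 in microglia. It was high in ER-Hoxb8 MLCs with no overlap of any other group, and low in microglia, which overlapped BMD MLCs and BMD macrophages. Fcgr3 was at 10.87, 10.84 and 10.08 in BMD macrophages and 10.56, 10.17 and 9.12 in ER-Hoxb8 macrophages. Medians in brain were 11.20 in BMD MLCs, 10.97 in ER-Hoxb8 MLCs and 11.28 in microglia, high everywhere.

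Fcgr2b was at 9.39, 8.97 and 8.60 in BMD macrophages and 8.51, 8.86 and 8.00 in ER-Hoxb8 macrophages. Its lowest, median and highest values were 9.20, 9.58 and 9.68 in BMD MLCs, 7.73, 8.92 and 9.17 in ER-Hoxb8 MLCs and 7.34, 7.97 and 8.41 in microglia. BMD MLCs were high and lay above every microglial library, while ER-Hoxb8 MLCs overlapped microglia. Fcer1g was at 11.45, 11.12 and 11.14 in BMD macrophages and 11.58, 11.07 and 10.82 in ER-Hoxb8 macrophages. Medians in brain were 10.64 in BMD MLCs, 11.31 in ER-Hoxb8 MLCs and 10.46 in microglia, again high throughout.

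**Figure D2:**
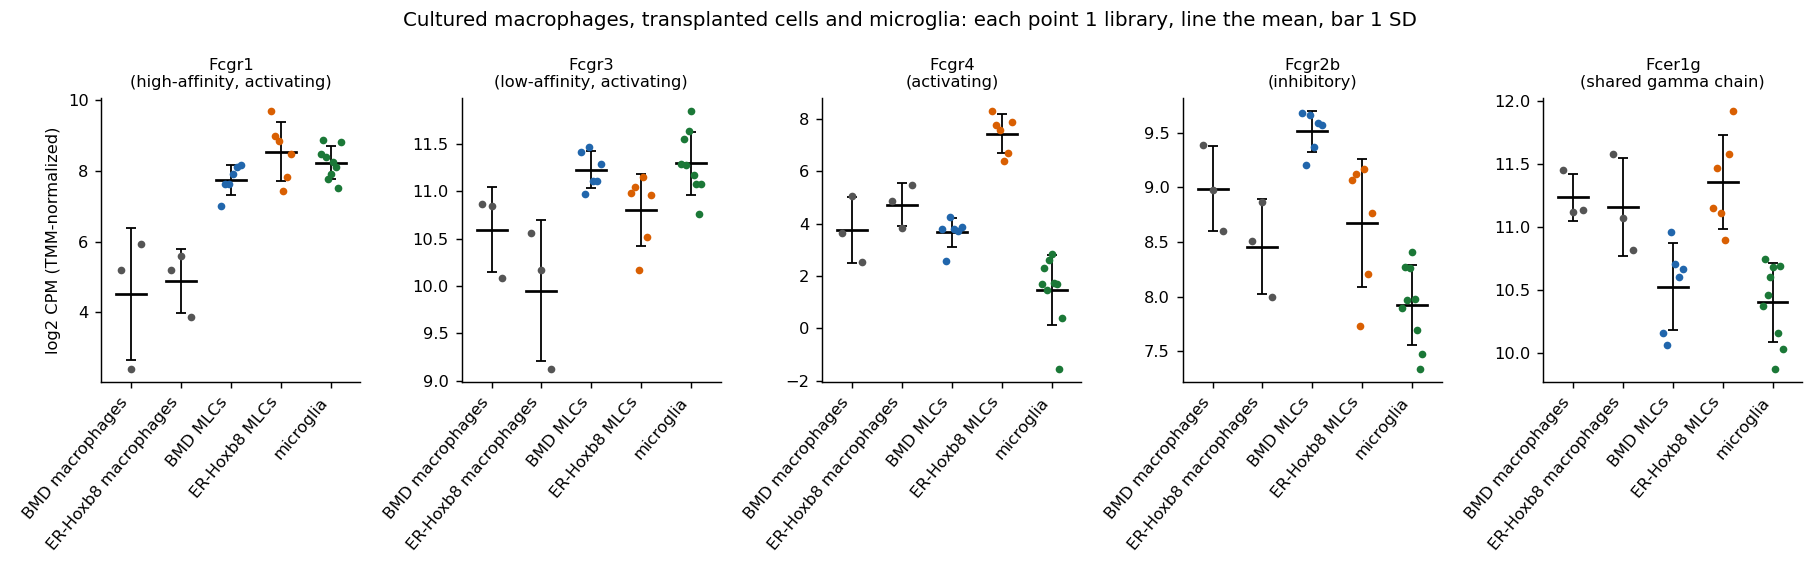
Values of the 5 members in every library of the macrophages-and-brain set. Fcgr4 lies between 6.41 and 8.31 in ER-Hoxb8 MLCs and between -1.55 and 2.84 in microglia.

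ER-Hoxb8 macrophages over BMD macrophages gave 0 of 5 members called, beside 1.96% of all genes, with 1071 genes at an unadjusted limma p below 0.05. Fold changes ran from -0.64 (Fcgr3) to 0.98 (Fcgr4), with a member median of -0.08 and an all-gene median of 0. Ranges overlapped for all 5. Fcgr1 (0.38) was at -0.67 without BMD macrophage replicate 2 and 1.10 without replicate 3, and Fcgr4 at 1.63 and 0.37, none called.

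BMD MLCs over BMD macrophages had 1 of 5 members called higher and 1 lower, beside 30.6% of all genes tested, with medians of 0.52 and, for all genes, -0.01. Fcgr1 rose by 3.23 (SE 0.55, n 6 and 3, adjusted p 9.36e-05), 9.36-fold, by 2.17 without BMD macrophage replicate 2 (adjusted p 0.00214) and by 3.94 without replicate 3. Fcer1g fell by 0.71 (SE 0.26, n 6 and 3, adjusted p 0.0426), with every MLC library below every macrophage library. Fcgr3 (0.63, adjusted p 0.103) was not called though its ranges did not overlap, and Fcgr2b and Fcgr4 were not called. Fcgr4 (-0.08) was at 0.57 without BMD macrophage replicate 2 and -0.69 without replicate 3. The Fcer1g call ended without BMD macrophage replicate 1 (-0.60, adjusted p 0.167), 2 (-0.76, 0.0684) or 3 (-0.75, 0.0853), and without MLC replicate 1 (-0.63, 0.0806), 2 (-0.61, 0.087) or 5 (-0.72, 0.0529). It also ended with filtering left out, with a pseudocount of 1, with medians set equal and with quantile normalization (-0.47, 0.164), which made calls for Fcgr2b (0.86, 0.041) and Fcgr3 (0.93, 0.0348).

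ER-Hoxb8 MLCs over ER-Hoxb8 macrophages had 3 of 5 members called higher, beside 34.8% of all genes tested. The member median was 0.85 and the all-gene median -0.15. Fcgr1 rose 12.6-fold (3.66, SE 0.55, n 6 and 3, adjusted p 1.4e-05), by 4.29 with the GFPHox and by 3.03 with the WTHox libraries only. Fcgr4 rose 6.59-fold (2.72, SE 0.70, n 6 and 3, adjusted p 0.00414). Fcgr3 rose by 0.85 (SE 0.29, n 6 and 3, adjusted p 0.0257) with overlap, and lost its call without ER-Hoxb8 macrophage replicate 3 (0.44, adjusted p 0.279), with the GFPHox libraries only (0.78, 0.0958), with library weights (0.53, 0.0623) and with the 2 groups fitted by themselves (0.85, 0.119). Fcgr2b (0.22) and Fcer1g (0.20) were not called. Within these MLCs Fcgr1 was at 9.70, 8.99 and 8.84 in the GFPHox libraries and 7.43, 7.83 and 8.49 in the WTHox libraries, without overlap.

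The difference from cultured macrophages was compared between the 2 kinds of MLC, as ER-Hoxb8 MLCs over ER-Hoxb8 macrophages minus BMD MLCs over BMD macrophages, though these ER-Hoxb8 macrophages may not share the source of the MLCs. Of the 5 members 0 were called, beside 3.28% of all genes, with 1920 genes at an unadjusted limma p below 0.05, a member median of 0.43 and an all-gene median of -0.20. Fcgr4 had the widest difference (2.80, SE 0.99, n 6 and 3 for each kind, adjusted p 0.13). It was called without microglia replicate 8 (adjusted p 0.0289), with library weights, with a pseudocount of 1 and when the 4 groups were fitted by themselves. Without BMD macrophage replicate 2 it was 2.15 (adjusted p 0.303) and without replicate 3 it was 3.41 (0.104), neither called. Fcgr1 differed by 0.43 (SE 0.77, adjusted p 0.869), by 1.06 with the GFPHox and by -0.20 with the WTHox libraries only, and by 1.49 without BMD macrophage replicate 2 and -0.28 without replicate 3, and was called in none of these.

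Microglia over BMD macrophages had all 5 members called, 2 higher and 3 lower, beside 40.8% of all genes tested. The member median was -0.83 and the all-gene median -0.06. Fcgr1 was 13.2-fold higher (3.73, SE 0.51, n 9 and 3, adjusted p 2.53e-06). Fcgr3 was higher by 0.70 (SE 0.28, n 9 and 3, adjusted p 0.0431). Fcgr4 was lower by 2.27 (SE 0.66, n 9 and 3, adjusted p 0.00767). Fcgr2b was lower by 1.07 (SE 0.28, n 9 and 3, adjusted p 0.00333). Fcer1g was lower by 0.83 (SE 0.25, n 9 and 3, adjusted p 0.0092). Microglia overlapped BMD macrophages for Fcgr3 and Fcgr4 and for neither Fcgr1, Fcgr2b nor Fcer1g.

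The microglial Fcgr3 call ended without BMD macrophage replicate 1 (0.84, adjusted p 0.0534), 2 (0.83, 0.0516) or 3 (0.45, 0.3). It also ended without microglia replicate 1 (0.70, adjusted p 0.0525), 2 (0.67, 0.0576), 3 (0.71, 0.0529), 4 (0.66, 0.0649) or 5 (0.63, 0.069). Without BMD macrophage replicate 2, at 2.39, Fcgr1 was higher by 2.67 (adjusted p 9.67e-05), and without replicate 3 by 4.44. Fcgr4 lost its call without BMD macrophage replicate 2 (-1.62, adjusted p 0.0953), was lower by 2.88 without replicate 3, and Fcer1g without replicate 1 (-0.72, adjusted p 0.0631) or with medians set equal (-0.62, 0.0985). A pseudocount of 1 (0.70, 0.0506), no filter (0.70, 0.056), quantile normalization (0.65, 0.0933) and a fit of the 2 groups by themselves (0.70, 0.0623) each ended the Fcgr3 call.

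BMD MLCs over microglia had 2 of 5 members called higher, beside 20.5% of all genes tested, with medians of 0.13 and, for all genes, 0.06. Fcgr2b was 3.01-fold higher (1.59, SE 0.22, n 6 and 9, adjusted p 3.98e-06). Fcgr4 was 4.56-fold higher (2.19, SE 0.52, n 6 and 9, adjusted p 0.0028), with overlap through MLC replicate 2 at 2.57. Fcgr1 (-0.50), Fcgr3 (-0.07) and Fcer1g (0.13) were not called.

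For ER-Hoxb8 MLCs over microglia 3 of 5 members were called higher, beside 33.9% of all genes tested. Medians were 0.76 for members and -0.10 for all genes. Fcgr4 was 62.6-fold higher (5.97, SE 0.52, n 6 and 9, adjusted p 7.21e-10), with all 6 MLC libraries above all 9 microglial ones, and by 5.38 without microglia replicates 8 and 9. Names of those replicates begin with YSWT and those of the other microglia with WT. Microglia replicate 8 stands apart, with a median correlation of 0.736 with its group, against 0.895 or more in the other microglia. Fcgr2b was higher by 0.76 (SE 0.22, n 6 and 9, adjusted p 0.00836) with overlap, and lost its call with the GFPHox libraries only (0.72, 0.0541). Fcer1g was higher by 0.95 (SE 0.20, n 6 and 9, adjusted p 0.000386) without overlap. Fcgr1 (0.31) was not called, at 0.95 with the GFPHox and -0.32 with the WTHox libraries only, nor was Fcgr3 (-0.49, adjusted p 0.083), which was called without microglia replicate 8 (-0.56, adjusted p 0.0443).

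Between the MLCs, ER-Hoxb8 over BMD, 2 of 5 members were called higher and 1 lower, beside 15.2% of all genes tested. Medians were 0.81 for members and -0.22 for all genes. Fcgr4 was 13.7-fold higher (3.78, SE 0.57, n 6 and 6, adjusted p 3.79e-05) without overlap. Fcer1g was higher by 0.82 (SE 0.21, n 6 and 6, adjusted p 0.00959) with overlap, and lost its call with the GFPHox libraries only (0.71, 0.054). Fcgr2b was lower by 0.83 (SE 0.24, n 6 and 6, adjusted p 0.0185), with every ER-Hoxb8 MLC library below every BMD MLC library. Its call ended without ER-Hoxb8 MLC replicate 3 (-0.65, adjusted p 0.0577) and with medians set equal (-0.67, 0.0788). Fcgr1 differed by 0.81 (SE 0.45, adjusted p 0.231), by 1.45 with the GFPHox (0.0656) and 0.18 with the WTHox libraries only, and Fcgr3 by -0.42 (adjusted p 0.249).

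In the order of means, Fcgr1 ran from ER-Hoxb8 MLCs through microglia and BMD MLCs to ER-Hoxb8 and BMD macrophages, with the only gap between brain and culture. Fcgr3 ran from microglia through BMD MLCs, ER-Hoxb8 MLCs and BMD macrophages to ER-Hoxb8 macrophages, every neighbour overlapping. Fcgr4 ran from ER-Hoxb8 MLCs, clear of the rest, through ER-Hoxb8 macrophages, BMD macrophages and BMD MLCs to microglia, each of these overlapping the next. The order for Fcgr2b was BMD MLCs, BMD macrophages, ER-Hoxb8 MLCs, ER-Hoxb8 macrophages and microglia, each overlapping the next. Fcer1g ran from ER-Hoxb8 MLCs through BMD and ER-Hoxb8 macrophages and BMD MLCs to microglia, each overlapping the next.

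**Figure D3:**
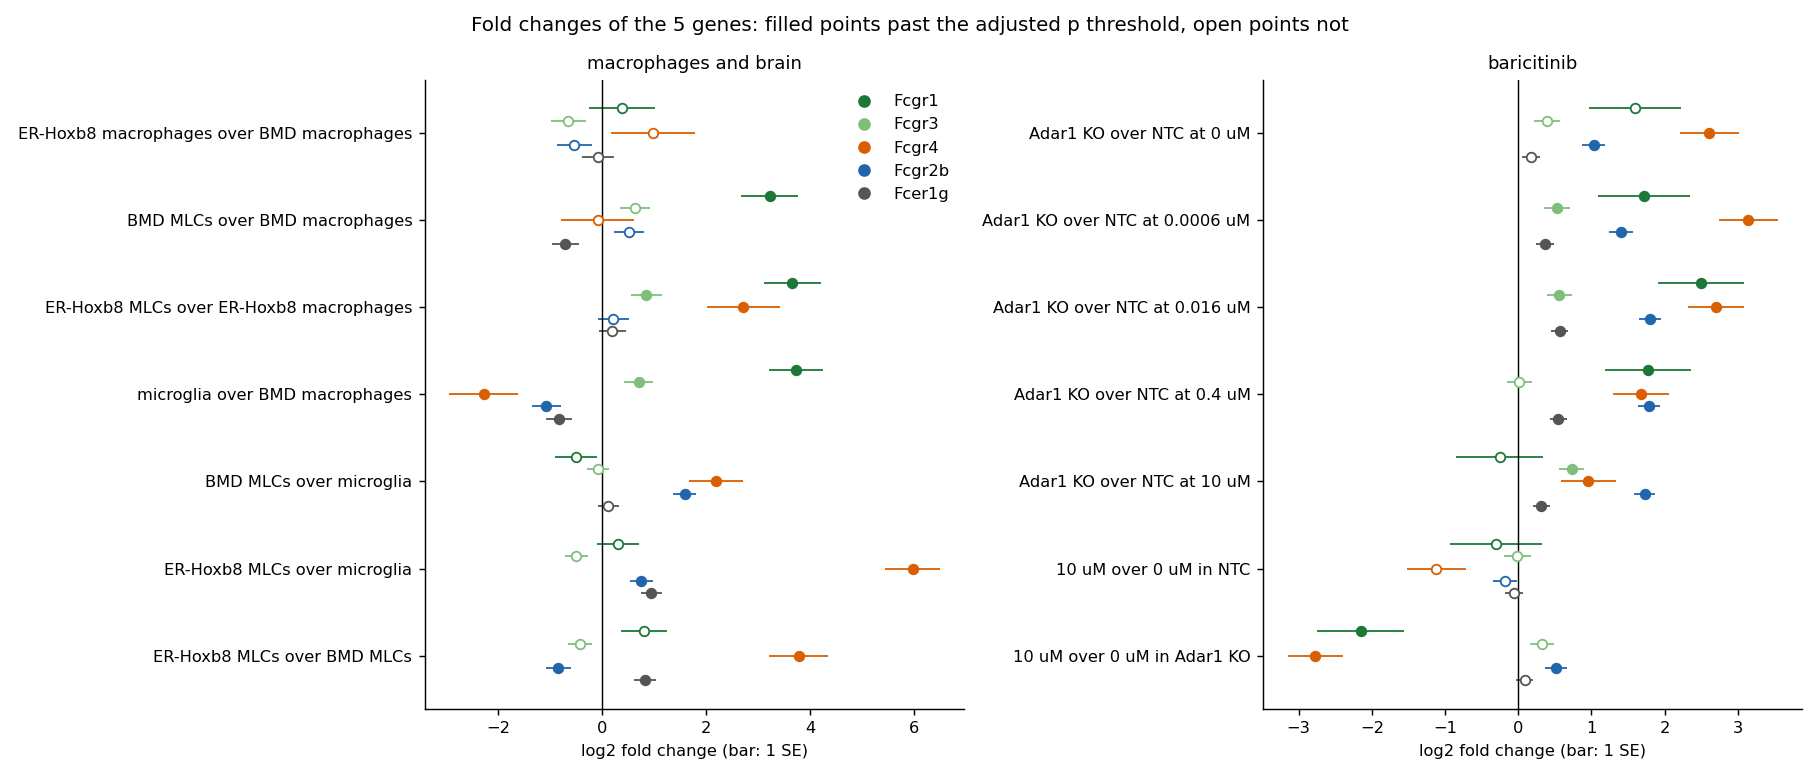
Log2 fold changes of the 5 members in the brain and baricitinib sets, filled where called. Fcgr4 stands at 5.97 in ER-Hoxb8 MLCs over microglia and at -2.77 in macrophages labelled Adar1 KO at 10 over 0 µM.

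ER-Hoxb8 MLCs also differed from the other brain cells in interferon-stimulated genes. All 11 were called higher than in microglia (median 5.71) and than in BMD MLCs (median 3.51). Their summed level had a lowest, median and highest of 1680, 4180 and 6900 CPM in ER-Hoxb8 MLCs, with Gbp2 the most abundant, against 131, 219 and 261 CPM in BMD MLCs and 25.7, 75.4 and 122 CPM in microglia. Bst2 (0.928), Fas (0.921) and Il18bp (0.918) were the genes most like Fcgr4 over the 27 libraries by Pearson correlation. Whether interferon signalling has a part in Fcgr4 was not tested.

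Likeness differed between members in this set. Fcgr1 was most like Lcp2 (0.918), Gatm (0.917) and Ighm (0.909). Fcgr3 was most like Abca9 (0.875), Arl4c (0.857) and Lipo1 (0.829). Fcgr2b was most like Ms4a14 (0.878), Tlr8 (0.859) and Cd300lh (0.85). Fcer1g was most like Myl6 (0.93), Ndufb7 (0.922) and Tomm6 (0.917). Among the members themselves Fcer1g and Fcgr4 had 0.686, Fcgr1 and Fcgr3 0.515, Fcgr3 and Fcgr4 -0.268 and Fcgr1 and Fcgr4 -0.00888. These correlations are over all groups together, and correlation within groups was not computed.

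Partners of the activating receptors were called in both directions, as were genes in general. Of all genes tested, 2576 were called higher and 2534 lower in microglia over BMD macrophages, together 40.8%. The shares of all genes called were 30.6% in BMD MLCs and 34.8% in ER-Hoxb8 MLCs over the macrophages of the same name. Whether the lists differed from these shares was not tested. In microglia over BMD macrophages 3 of 16 activating signalling genes were called higher (Tyrobp, Lyn and Lcp2) and 4 lower (Syk, Fgr, Lat2 and Rac2), with a list median of -0.09. Lyn was higher by 1.64 (SE 0.21, adjusted p 8.22e-07) and Lcp2 by 1.34 (SE 0.34, adjusted p 0.0025), while Syk was lower by 1.16 (SE 0.42, adjusted p 0.0271). Tyrobp, Lyn and Lcp2 were also higher in BMD and ER-Hoxb8 MLCs over the macrophages of the same name, where the lists gave 3 higher and 2 lower for BMD cells and 4 higher and 3 lower for ER-Hoxb8 cells. In other sets Tyrobp was at the lowest value in whole groups of cultured macrophages, so its calls over culture are uncertain. Of the inhibitory genes 4 of 8 were called lower in microglia (Ptpn11, Dok1, Dok2 and Cblb, median -1.89), 3 in BMD MLCs (-1.24) and 3 in ER-Hoxb8 MLCs (-1.08), and none higher. Among 6 other Fc receptors tested, Fcer2a, Fcrl5 and Fcrls were called higher in microglia (median 1.36). Fcrls was lower in ER-Hoxb8 than in BMD MLCs by 4.18 (SE 1.12, n 6 and 6, adjusted p 0.012).

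The markers put limits on what these libraries are. All 8 microglial genes were called higher in microglia than in BMD macrophages (median 9.49), 8 of 8 in BMD MLCs (6.5) and 7 of 8 in ER-Hoxb8 MLCs over ER-Hoxb8 macrophages (5.08), yet 7 and 8 of 8 were lower than in microglia (-2.39 and -4.07). Border macrophage genes were higher in BMD MLCs than in microglia, 5 of 6 (median 6.05), and summed a median of 3680 against 51.7 CPM, Mrc1 the most abundant. Macrophage identity genes, with 5 of 9 called higher and 1 lower in microglia over BMD macrophages (median 1.22), summed a median of 16200 CPM in microglia, 8420 in BMD MLCs and 4670 in ER-Hoxb8 MLCs.

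RNA of neutrophils, which also carry Fcgr3, Fcgr4 and Fcer1g, was present in cells from brain. In BMD MLCs 6 of 8 neutrophil genes were called over BMD macrophages (median 10.38) and summed 4440, 29900 and 33100 CPM as lowest, median and highest, Ngp the most abundant. ER-Hoxb8 MLCs had 238, 2060 and 41200 CPM (6 of 8 called over ER-Hoxb8 macrophages, median 6.34) and microglia 407, 1950 and 5900 CPM (6 of 8, 6.98). Neutrophil genes were called lower in ER-Hoxb8 than in BMD MLCs for 3 of 8 and higher for 0. NK genes reached 832 CPM in the highest ER-Hoxb8 MLC library (3 of 4 tested called over macrophages, median 5.88). B cell genes in ER-Hoxb8 MLCs over macrophages gave 3 of 3 called higher (2.85), and mast cell and basophil genes 0 of 1 (-1.05), with sums of at most 175 and 90.3 CPM. The part of these cells was not tested.

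Genes of other brain cells were read as well. Neuronal genes were called higher in microglia over BMD macrophages for 2 of 2 tested (Snap25 and Stmn2, median 3.47) and summed at most 145 CPM. Oligodendrocyte genes gave 0 of 2 called (median 0.36) with at most 116 CPM, and astrocyte genes 1 higher and 1 lower of 4 (0.84) with 170 to 572 CPM, where Slc1a3 made most of the sum and Aqp4 was at the lowest value in every microglial library. Endothelial genes gave 1 called higher (Pecam1, median 0.56), with at most 68.8 CPM. Proliferation genes were lower in microglia for 5 of 5 (-3.56) and higher in ER-Hoxb8 MLCs than in microglia for 5 of 5 (3.49). Their part in the member values was not tested.

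In edited ER-Hoxb8 cells the step from progenitor to macrophage was the largest member change: Fcgr1, Fcgr3, Fcgr4 and Fcer1g rose with every guide. The macrophages labelled Adar1 KO had more Fcgr1 and Fcgr4 than NTC macrophages, while progenitors gave no call. The difference between those effects was called for Fcgr1 and Fcgr4.

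Adar, the targeted gene, was at 4.36, 4.23 and 4.24 in progenitors labelled Adar1 KO and 4.20, 3.42 and 4.28 in NTC progenitors. In macrophages it was at 6.96, 7.15 and 7.01 under the KO label and 5.73 and 5.67 in NTC. In progenitors its RNA overlapped between labels and was not called (0.31, SE 0.19, adjusted p 0.924), and it was higher, without overlap, in the macrophages labelled KO, by 1.34 (SE 0.21, n 3 and 2, adjusted p 0.000976), against the direction of the label. Guide-made insertions and deletions need not lower RNA, so the RNA level does not check the editing, which the study checked in DNA at the cut site, and all directions below are those of the labels.

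Fcgr1 was at 8.39, 8.16 and 7.61 in macrophages labelled KO and 6.26 and 6.08 in NTC macrophages, with progenitors at 1.55, 2.16 and 1.49 under the KO label and 1.03, 1.98 and 1.89 in NTC. It was high in macrophages, low in progenitors, and apart between the macrophage groups. Fcgr4 was at 5.99, 6.45 and 6.14 in macrophages labelled KO and 5.14 and 4.96 in NTC macrophages, with progenitors at 1.19, 0.98 and 1.44 under the KO label and 2.28, 1.33 and 1.42 in NTC. Here too the macrophage groups did not overlap and the progenitor groups did. Fcgr2b was at 9.00, 7.98 and 7.86 in macrophages labelled KO, 8.72 and 8.23 in NTC macrophages, 7.70, 7.85 and 7.73 in progenitors labelled KO and 7.95, 8.04 and 7.81 in NTC progenitors. Its levels were high and close in all 4 groups, with overlap between labels in both cell states. Fcgr3 (9.96 to 10.57) and Fcer1g (10.94 to 11.75) were high in every macrophage library and lower in every progenitor library.

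**Figure D4:**
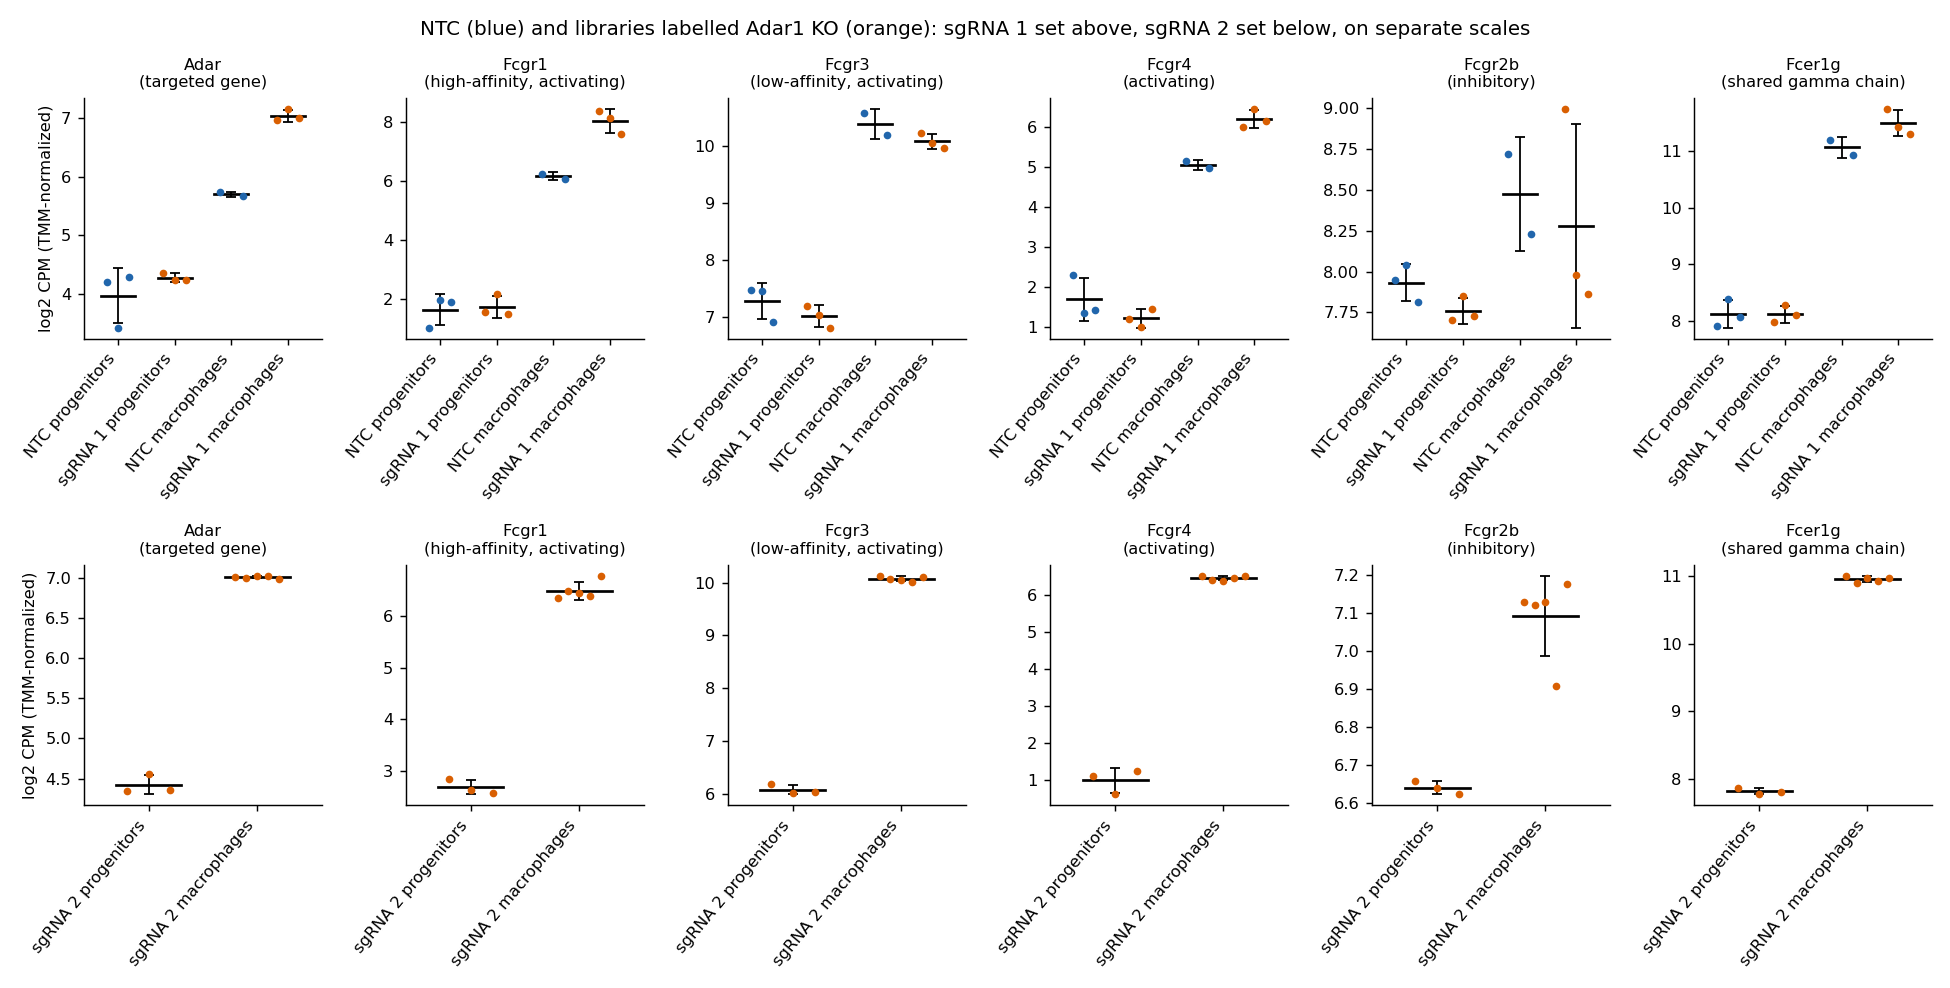
Values of the 5 members in edited progenitors and macrophages. Fcgr1 is between 7.61 and 8.39 in macrophages labelled Adar1 KO and at 6.26 and 6.08 in NTC macrophages of the same set.

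NTC macrophages over NTC progenitors had 4 of 5 members called higher, beside 71.8% of all genes tested, with medians of 3.09 and, for all genes, -0.08. Fcgr1 rose 23.2-fold (4.54, SE 0.32, n 2 and 3, adjusted p 1.55e-07). Fcgr3 rose by 3.09 (SE 0.19, n 2 and 3, adjusted p 4.73e-08). Fcgr4 rose 10.4-fold (3.38, SE 0.28, n 2 and 3, adjusted p 6.26e-07). Fcer1g rose by 2.94 (SE 0.17, n 2 and 3, adjusted p 3.48e-08). Fcgr2b was not called (0.54, SE 0.28, adjusted p 0.0972), though both macrophage libraries were above all 3 progenitor libraries.

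Under the label Adar1 KO sgRNA 1, macrophages over progenitors again had 4 of 5 members called higher, beside 71.3% of all genes tested, with medians of 3.37 and, for all genes, -0.06. Fcgr1 rose 79.9-fold (6.32, SE 0.28, n 3 and 3, adjusted p 3.84e-09). Fcgr4 rose 31.8-fold (4.99, SE 0.25, n 3 and 3, adjusted p 8.61e-09). Fcgr3 rose by 3.06 (SE 0.17, adjusted p 1.79e-08) and Fcer1g by 3.37 (SE 0.15, adjusted p 4.45e-09). Fcgr2b (0.52, SE 0.25, adjusted p 0.0782) was called without macrophage replicate 2 (0.67, adjusted p 0.0483) or 3 (0.73, 0.024).

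Lines labelled Adar1 KO with sgRNA 2 have no NTC library in their set, and only the step to macrophages was tested. Adar was at 4.35, 4.56 and 4.36 in these progenitors and 7.02, 7.00, 7.02, 7.03 and 6.99 in the macrophages, so it rose with the step (2.59). Fcgr1 was at 2.85, 2.63 and 2.58 in progenitors and 6.36, 6.50, 6.46, 6.38 and 6.79 in macrophages. Fcgr4 was at 1.10, 0.60 and 1.24 in progenitors and 6.52, 6.40, 6.38, 6.47 and 6.52 in macrophages. Both were low in progenitors and high in macrophages without overlap. All 5 members were called higher, beside 81.3% of all genes tested, with medians of 3.81 and, for all genes, -0.03. Fcgr1 rose 14-fold (3.81, SE 0.11, n 5 and 3, adjusted p 2.25e-10). Fcgr4 rose 44.6-fold (5.48, SE 0.13, n 5 and 3, adjusted p 7.17e-11). Fcgr3 rose by 3.99 (SE 0.05, adjusted p 5.66e-13), Fcer1g by 3.13 (SE 0.04, adjusted p 5.35e-13) and Fcgr2b by 0.45 (SE 0.06, adjusted p 4.67e-05).

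Replicates of edited cells were much alike, with a median standard deviation over genes of 0.12 in sgRNA 2 progenitors, 0.136 in sgRNA 2 macrophages, 0.144 in NTC macrophages, 0.149 and 0.187 in sgRNA 1 progenitors and macrophages and 0.228 in NTC progenitors. How far they are separate cultures cannot be told from the labels.

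In progenitors, Adar1 KO sgRNA 1 over NTC gave 0 of 5 members called, beside 0.936% of all genes, with 725 genes at an unadjusted limma p below 0.05. Fold changes ran from -0.47 (Fcgr4) to 0.10 (Fcgr1), with a member median of -0.17 and an all-gene median of -0.01. Ranges overlapped for Fcgr1, Fcgr3, Fcgr4, Fcgr2b and Fcer1g alike.

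In macrophages, Adar1 KO sgRNA 1 over NTC had 2 of 5 members called higher, beside 21.8% of all genes tested, with medians of 0.42 and, for all genes, 0.05. Fcgr1 was 3.69-fold higher (1.88, SE 0.32, n 3 and 2, adjusted p 0.00144). Fcgr4 was 2.2-fold higher (log2 scale 95% interval 0.53 to 1.75, SE 0.28, n 3 and 2, adjusted p 0.0132), and its call ended without KO replicate 2 (1.01, adjusted p 0.0542), NTC replicate 1 (1.23, 0.0531) or NTC replicate 3 (1.05, 0.0734). Fcer1g was not called (0.42, SE 0.17, adjusted p 0.104) although all KO libraries were above both NTC libraries, nor was Fcgr3 (-0.30, adjusted p 0.279). Fcgr2b (-0.20, adjusted p 0.657) was called lower without KO replicate 1 (-0.55, adjusted p 0.0344).

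The effect of the label in macrophages minus its effect in progenitors was called higher for 2 of 5 members, beside 13.6% of all genes tested, with medians of 0.43 and, for all genes, 0.08. Fcgr1 differed by 1.78 (SE 0.42, n 3 and 2 macrophage and 3 and 3 progenitor libraries, adjusted p 0.0175), and its call ended without NTC macrophage replicate 3 (1.69, adjusted p 0.0502). Fcgr4 differed by 1.61 (SE 0.37, adjusted p 0.015). Fcgr3 (-0.03), Fcgr2b (-0.02) and Fcer1g (0.43, adjusted p 0.246) were not called.

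By mean, Fcgr1 ran from macrophages labelled KO, clear of NTC macrophages, to progenitors labelled KO and NTC, which overlapped. Fcgr4 had the same order of macrophages, then NTC progenitors and progenitors labelled KO, overlapping. Fcgr3 ran from NTC macrophages through those labelled KO to NTC progenitors and progenitors labelled KO, with the only gap between cell states. Fcgr2b had the same order with every neighbour overlapping. Fcer1g ran from macrophages labelled KO, clear of NTC, to progenitors, which overlapped.

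The macrophage step was also that of the identity genes, 9 of 9 called higher in NTC (median 4.46), under the label of sgRNA 1 (4.32) and of sgRNA 2 (3.4), while neutrophil genes fell in NTC for 7 of 7 tested (-7.38). This step was called for 71.8% of all genes tested in NTC, and whether the signalling lists differed from that share was not tested. Of 14 activating signalling genes tested 10 rose and Lcp2 fell in NTC (median 0.88), with Syk up by 2.50 (SE 0.20, n 2 and 3, adjusted p 5.15e-07). Of 8 inhibitory genes 6 rose (median 0.78), among them Inpp5d (1.62, SE 0.21, adjusted p 2.99e-05) and Ptpn6 (1.16, SE 0.11, adjusted p 1.55e-06). Tyrobp was at the lowest value in all progenitors of the set. Among other Fc receptors 4 of 5 tested rose and Ms4a2 fell (3.5).

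In macrophages labelled KO over NTC, 10 of 11 interferon-stimulated genes were called higher (all but Irf1, median 5.39), summing 3860, 7070 and 8180 CPM against 158 and 149 CPM, Ifit3 the most abundant. In progenitors 0 of 11 were called (median -0.15). Lyn (0.88, SE 0.12, adjusted p 0.000276) and Lcp2 (1.09, SE 0.17, adjusted p 0.000802) were the activating signalling genes called higher, Pik3cd and Card9 the lower ones, and 0 of 8 inhibitory genes were called. Of all genes tested 21.8% were called between these macrophages. Trim21, the cytosolic antibody receptor, was higher (1.42, SE 0.26, adjusted p 0.00228), while Fcgrt (-1.66, SE 0.26, adjusted p 0.000839) and Fcrls (-2.59, SE 0.40, adjusted p 0.000799) were lower. Csf1r, Emr1, Mertk and Spi1 were lower, 4 of 9 identity genes, and proliferation genes were higher for 5 of 5 (2.48). Endothelial Flt1 and Ly6c1 were higher, 2 of 3 tested (1.67).

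Under baricitinib, Fcgr2b was higher in macrophages labelled Adar1 KO than in NTC at all 5 doses. Fcgr4 was also called higher at all 5 doses. At 0.4 µM the calls of Fcgr2b and Fcgr4 ended when replicate number was added to the fit as a block. From 0 to 10 µM Fcgr4 and Fcgr1 fell in the macrophages labelled KO, but at lower doses Fcgr1 had means of 7.42 (0.0006 µM) and 7.86 (0.016 µM) against 7.04 at 0 µM, and Fcgr4 of 5.53 and 4.98 against 5.51. At 10 µM Fcgr1 lay close to NTC, while Fcgr2b had risen further. In NTC macrophages neither 0.4 nor 10 µM gave a call for any member.

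The library labelled Adar1 KO 0.4 µM replicate 2 stands apart from its replicates and was set aside in an alternative chosen after the values were seen. Its interferon-stimulated genes sum 19100 CPM against 28.7 and 85.7 CPM in the other replicates, and it enlarges the spread used for every comparison of this set.

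Adar was at 7.42, 6.52 and 6.37 in macrophages labelled KO and 5.12, 4.94 and 4.69 in NTC at 0 µM, and at 1.55, 2.15, 2.91 and 2.03 under the KO label and 3.70, 3.64 and 3.22 in NTC at 10 µM. It was higher under the KO label without drug and lower at 10 µM, without overlap at either dose. The differences were 1.85 at 0 µM (adjusted p 0.0051), 1.18 at 0.0006 µM (0.0647), 1.77 at 0.016 µM (0.00303), 1.01 at 0.4 µM (0.136) and -1.36 at 10 µM (0.0146). At 0.4 µM replicate 2 made the difference, with KO libraries at 4.12, 7.38 and 4.21 beside an NTC mean of 4.23. A call in the direction of the label was made at 10 µM alone.

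Fcgr1 under the KO label was at 6.88, 7.12 and 7.14 at 0 µM, 6.86, 7.91 and 7.50 at 0.0006 µM, 8.14, 8.12 and 7.33 at 0.016 µM, 5.19, 9.90 and 5.32 at 0.4 µM and 4.61, 5.24, 5.02 and 4.69 at 10 µM. In NTC it was at 5.36, 5.64 and 5.34 at 0 µM and 5.12, 5.37 and 4.94 at 10 µM, and all 17 NTC libraries lay between 4.94 and 5.91. It was high under the KO label at the 3 lower doses, clear of NTC at each, and overlapped NTC of the same dose only at 10 µM. Fcgr4 under the KO label was at 5.72, 5.45 and 5.37 at 0 µM, 5.75, 5.37 and 5.47 at 0.0006 µM, 4.69, 4.90 and 5.35 at 0.016 µM, 2.65, 5.34 and 3.05 at 0.4 µM and 3.39, 2.78, 2.23 and 2.57 at 10 µM. In NTC it was at 3.01, 2.88 and 2.83 at 0 µM and 1.75, 1.57 and 2.03 at 10 µM. At every dose each KO library was above each NTC library.

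Fcgr2b under the KO label was at 9.14, 9.26 and 9.34 at 0 µM, 9.19, 9.47 and 9.37 at 0.0006 µM, 9.68, 9.91 and 9.45 at 0.016 µM, 9.81, 9.43 and 9.84 at 0.4 µM and 10.20, 9.71, 9.29 and 9.86 at 10 µM. In NTC it was at 8.21, 8.21 and 8.24 at 0 µM, 8.11, 7.84 and 7.87 at 0.0006 µM and 8.10, 7.74 and 8.28 at 10 µM. It was high throughout, and no NTC library of any dose reached a KO library. Fcgr3 was between 9.71 and 9.89 in every NTC library and between 9.08 and 10.84 under the KO label, where replicate 2 at 0.4 µM was lowest. Fcer1g was between 11.20 and 11.39 in NTC and between 11.31 and 12.11 under the KO label, high in all.

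**Figure D5:**
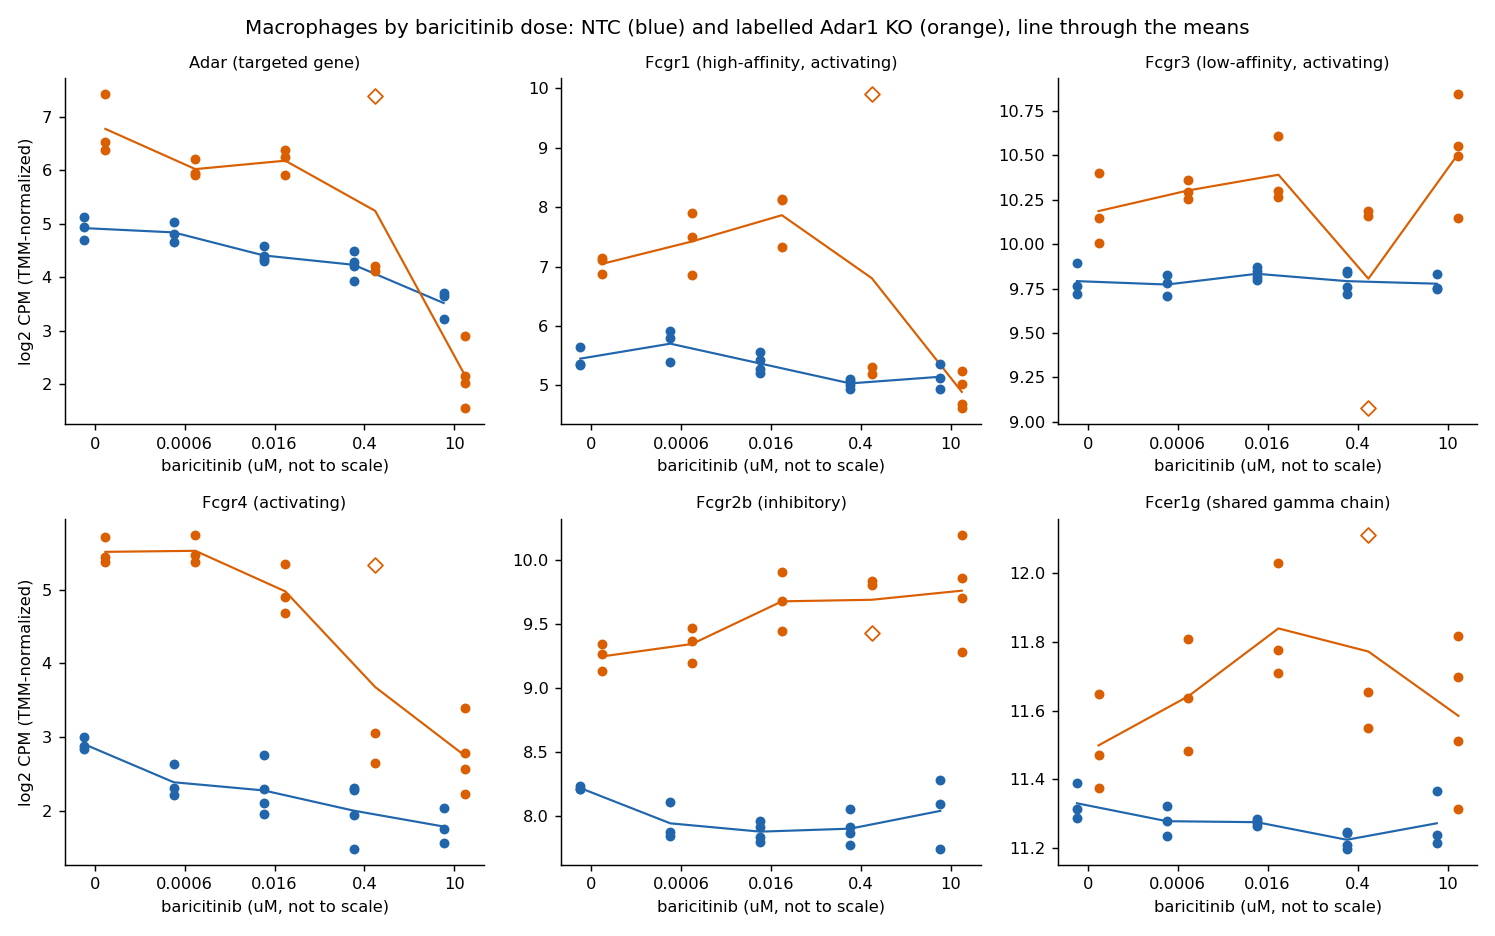
Values of the 5 members at each baricitinib dose, the library set aside drawn as an open diamond. Fcgr1 under the KO label goes from 6.88, 7.12 and 7.14 at 0 µM to between 4.61 and 5.24 at 10 µM.

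At 0 µM 2 of 5 members were called higher under the KO label, beside 25.3% of all genes tested, with medians of 1.03 and, for all genes, -0.02. Fcgr4 was 6.1-fold higher (2.61, SE 0.40, n 3 and 3, adjusted p 2.13e-05). Fcgr2b was higher by 1.03 (SE 0.16, n 3 and 3, adjusted p 2.23e-05). Fcgr1 differed by 1.60 (SE 0.63, adjusted p 0.064) and Fcgr3 by 0.39 (SE 0.18, adjusted p 0.114), both without overlap and both called once replicate 2 of the 0.4 µM KO group was set aside (Fcgr1 adjusted p 8.46e-07, Fcgr3 0.00977). Fcer1g differed by 0.17 (adjusted p 0.342).

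At 0.0006 µM all 5 members were called higher, beside 29% of all genes tested, with medians of 1.4 and, for all genes, 0. Fcgr4 was 8.83-fold higher (3.14, SE 0.40, n 3 and 3, adjusted p 1.06e-06). Fcgr2b was higher by 1.40 (SE 0.16, n 3 and 3, adjusted p 1.61e-07). Fcgr1 was higher by 1.72 (SE 0.63, adjusted p 0.0407), and lost its call without NTC replicate 1 (1.57, adjusted p 0.111), 2 (1.83, 0.0673) or 3 (1.77, 0.0758) or KO replicate 2 (1.48, 0.136) or 3 (1.68, 0.0933). Fcgr3 was higher by 0.53 (SE 0.18, adjusted p 0.0285), and lost its call without NTC replicate 1 (0.53, adjusted p 0.0592), 2 (0.50, 0.0846) or 3 (0.56, 0.0512) or KO replicate 1 (0.50, 0.0788), 2 (0.56, 0.0508) or 3 (0.53, 0.0621). Fcer1g was higher by 0.36 (SE 0.12, adjusted p 0.026), and lost its call without NTC replicate 1 (0.37, adjusted p 0.0575) or 2 (0.34, 0.0799) or KO replicate 2 (0.37, 0.057) or 3 (0.28, 0.138), and with quantile normalization (0.03, 0.865). Leaving out the filter ended the calls of Fcgr1 (1.72, adjusted p 0.0739), Fcgr3 (0.53, 0.054) and Fcer1g (0.36, 0.0647).

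At 0.016 µM all 5 members were again called higher, beside 32.2% of all genes tested, with medians of 1.8 and, for all genes, 0. Fcgr1 was higher by 2.50 (SE 0.59, n 3 and 4, adjusted p 0.00162). Fcgr4 was higher by 2.70 (SE 0.38, n 3 and 4, adjusted p 3.12e-06). Fcgr3 was higher by 0.56 (SE 0.17, adjusted p 0.0123), and lost its call without KO replicate 2 (0.45, adjusted p 0.0885). The inhibitory receptor gene Fcgr2b exceeded NTC by 1.80 (SE 0.15, n 3 and 4, adjusted p 4.74e-10). The shared chain gene Fcer1g exceeded NTC by 0.56 (SE 0.12, n 3 and 4, adjusted p 0.000362), and by 0.11 without a call after quantile normalization (0.468).

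At 0.4 µM 4 of 5 members were called higher, beside 13.5% of all genes tested, with medians of 1.68 and, for all genes, 0.01. With the replicate block none of these was called. Fcgr2b exceeded NTC by 1.79 (SE 0.15, n 3 and 4, adjusted p 2.58e-09), and by 1.84 with that block (adjusted p 0.0647). Fcer1g exceeded NTC by 0.55 (SE 0.12, n 3 and 4, adjusted p 0.00194), and lost its call with quantile normalization (0.13, 0.447) and with the 2 groups fitted by themselves (0.55, 0.0984). Fcgr4 was higher by 1.68 (SE 0.38, adjusted p 0.0039), and not called without KO replicate 2 (0.85, adjusted p 0.0548) or with the 2 groups fitted by themselves (1.68, 0.206). Fcgr1 differed by 1.77 (SE 0.59, adjusted p 0.0453), a value that KO replicate 2 made, since without it the difference was 0.22 (adjusted p 0.638), against 2.58 without KO replicate 1 and 2.51 without replicate 3. Its call also ended without NTC replicate 1 (1.76, adjusted p 0.082), 2 (1.79, 0.0755), 3 (1.78, 0.0775) or 4 (1.74, 0.0784), without the filter (1.77, 0.0817), with library weights (0.32, 0.285) and with the 2 groups alone (1.77, 0.386). Fcgr3 was not called (0.01, adjusted p 0.973).

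At 10 µM 4 of 5 members were called higher, beside 45.3% of all genes tested, with medians of 0.73 and, for all genes, 0. Fcgr2b exceeded NTC by 1.72 (SE 0.15, n 4 and 3, adjusted p 6.53e-10). Fcgr3 was higher by 0.73 (SE 0.17, n 4 and 3, adjusted p 0.000869) without overlap. Fcgr4 was higher by 0.96 (SE 0.38, adjusted p 0.0403), and lost its call without NTC replicate 1 (0.94, adjusted p 0.0894) or 2 (0.85, 0.126) or KO replicate 1 (0.74, 0.137) or 2 (0.95, 0.071), with a pseudocount of 1 (0.82, 0.0579) and without the filter (0.96, 0.0733). Fcer1g was higher by 0.31 (SE 0.12, adjusted p 0.0276) with overlap, and lost its call without NTC replicate 1 (0.28, adjusted p 0.092) or 2 (0.30, 0.0794) or KO replicate 1 (0.28, 0.0751) or 2 (0.24, 0.111), without the filter (0.31, 0.0693) and with the 2 groups by themselves (0.31, 0.0846). Fcgr1 was not called (-0.25, SE 0.59, adjusted p 0.761).

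From 0 to 10 µM in macrophages labelled KO, 1 of 5 members was called higher and 2 lower, beside 65.8% of all genes tested, with medians of 0.09 and, for all genes, 0.05. Fcgr4 fell by 2.77 (SE 0.38, n 4 and 3, adjusted p 3.38e-07) and Fcgr1 by 2.15 (SE 0.59, n 4 and 3, adjusted p 0.00222), both without overlap. Fcgr2b rose by 0.51 (SE 0.15, n 4 and 3, adjusted p 0.00375) with overlap through 10 µM replicate 3 at 9.29, and lost its call with the replicate block (0.48, adjusted p 0.107). Fcgr3 was not called (0.32, SE 0.17, adjusted p 0.0958), and was called without 10 µM replicate 3 (0.44, adjusted p 0.026) or without the 0.4 µM replicate 2 (0.32, 0.00977). Fcer1g was not called (0.09, adjusted p 0.522), but was after quantile normalization (0.68, 2.97e-06).

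From 0 to 10 µM in NTC macrophages 0 of 5 members were called, beside 13.8% of all genes, with 3169 genes at an unadjusted limma p below 0.05. Fold changes ran from -1.12 (Fcgr4) to -0.01 (Fcgr3), with a member median of -0.18 and an all-gene median of 0. Fcgr4 (SE 0.40, adjusted p 0.0631) had no overlap between doses, and was called lower once the 0.4 µM KO replicate 2 was set aside (-1.12, adjusted p 0.00213).

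The label's effect at 10 µM minus its effect at 0 µM was called for 2 of 5 members, 1 higher and 1 lower, beside 39.5% of all genes tested, with medians of 0.14 and, for all genes, 0.06. Fcgr4 differed by -1.65 (SE 0.55, adjusted p 0.0194, n 4 and 3 at 10 µM, 3 and 3 at 0 µM). Fcgr2b differed by 0.69 (SE 0.22, adjusted p 0.0138), and lost its call without NTC 10 µM replicate 2 (0.54, adjusted p 0.0584) or with the replicate block (0.66, 0.0875). Fcgr1 differed by -1.85 (SE 0.86, adjusted p 0.0902), and was called with the 0.4 µM KO replicate 2 set aside (-1.85, adjusted p 9.04e-06). Fcgr3 (0.34) and Fcer1g (0.14) were not called, the latter being called after quantile normalization (0.56, 0.00599).

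From 0 to 0.4 µM in macrophages labelled KO, 1 of 5 members was called higher and 1 lower, beside 26.6% of all genes tested, with medians of -0.24 and, for all genes, 0.03. With the replicate block neither was called. Fcgr4 fell by 1.84 (SE 0.40, n 3 and 3, adjusted p 0.00139), which was not called with the 2 groups fitted by themselves (0.165), and by 2.67 without 0.4 µM replicate 2 (adjusted p 2.2e-08). Fcgr2b rose by 0.44 (SE 0.16, adjusted p 0.041), and lost its call without 0 µM replicate 1 (0.39, adjusted p 0.151) or 2 (0.45, 0.0795) or 0.4 µM replicate 1 (0.39, 0.131) or 3 (0.37, 0.15), with no filter (0.44, 0.073), quantile normalization (0.20, 0.389), medians set equal (0.43, 0.0671) or the 2 groups alone (0.44, 0.152). Fcgr1 differed by -0.24 (SE 0.63, adjusted p 0.825), but fell by 1.79 without 0.4 µM replicate 2 (adjusted p 8.63e-07), and was at 0.57 without replicate 1 and 0.50 without replicate 3. Fcgr3 (-0.38, adjusted p 0.126) was called without 0.4 µM replicate 1 (-0.56, adjusted p 0.0383) or 3 (-0.57, 0.0333). Fcer1g (0.27, adjusted p 0.102) was called without 0.4 µM replicate 1 (0.39, adjusted p 0.0362).

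From 0 to 0.4 µM in NTC macrophages 0 of 5 members were called, beside 0.00897% of all genes, with 598 genes at an unadjusted limma p below 0.05. Fold changes ran from -0.91 (Fcgr4) to 0.00 (Fcgr3), with a member median of -0.32 and an all-gene median of -0.01. Fcgr1, Fcgr4, Fcgr2b and Fcer1g did not overlap between these doses, each lower at 0.4 µM. None of them was called, and the share of all genes without overlap is not given here.

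By mean, Fcgr2b ran through the 5 KO groups (10, 0.4, 0.016, 0.0006 and 0 µM) before the 5 NTC groups (0, 10, 0.0006, 0.4 and 0.016 µM), with the only gap between labels. Fcgr4 ran from KO 0.0006 and 0 µM, clear of the next, through KO 0.016 and 0.4 µM, NTC 0 µM and KO 10 µM to NTC 0.0006, 0.016, 0.4 and 10 µM, each overlapping the next. Fcgr1 ran from KO 0.016, 0.0006, 0 and 0.4 µM through NTC 0.0006, 0, 0.016, 10 and 0.4 µM to KO 10 µM, each overlapping the next. Fcgr3 ran from KO 10, 0.016, 0.0006 and 0 µM, clear of the next, to NTC 0.016 µM, KO 0.4 µM and NTC 0, 0.4, 10 and 0.0006 µM. Fcer1g ran from KO 0.016, 0.4, 0.0006, 10 and 0 µM to NTC 0, 0.0006, 0.016, 10 and 0.4 µM, each overlapping the next.

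Interferon-stimulated genes differed by label and dose. Under the KO label 10 of 11 were called higher than NTC at 0 µM (median 5.33), 9 at 0.0006 µM, 11 at 0.016 µM, 10 at 0.4 µM and 0 at 10 µM (median 0.36). Their summed level under the KO label was 2850, 3010 and 3060 CPM at 0 µM and between 19.5 and 20.8 CPM at 10 µM, where 10 of 11 were called lower than at 0 µM (median -8.22). At 0.4 µM replicate 2 alone was high (19100 CPM), while the other 2 KO libraries, at 28.7 and 85.7 CPM, stood beside 26.8 to 32.6 CPM in NTC. From 0 to 10 µM under the KO label Fcgr1 and Fcgr4 were called lower and Fcgr2b higher. At 10 µM Fcgr4 was called over NTC (0.96, limma adjusted p 0.0403), and leaving out some single libraries ended that call. No test related the members to the list, and which step baricitinib acts on was not tested.

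Over the 33 libraries Fcgr1 was most like Trex1 (0.987), Phf11b (0.985) and Psme1 (0.983). Fcgr4 was most like Npc2 (0.976), Ctss (0.968) and Sdf4 (0.967). Fcgr3 was most like Glod4 (0.918), Ndufaf4 (0.909) and Cnbp (0.903). Fcgr2b was most like Fpr1 (0.949), Clec4n (0.947) and Cd86 (0.946). Fcer1g was most like Cyba (0.927), Hmox2 (0.913) and Snx10 (0.91). Between members Fcgr1 and Fcgr4 had 0.836, Fcer1g and Fcgr2b 0.824, Fcgr2b and Fcgr3 0.723 and Fcgr1 and Fcgr3 0.0136.

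Signalling genes were read at both ends of the dose range. Of all genes tested 25.3% were called between labels at 0 µM and 45.3% at 10 µM. At 0 µM 6 of 14 activating signalling genes were called higher under the KO label and 2 lower (median 0.23), among them Syk (0.84, SE 0.14, adjusted p 6.31e-05) and Lcp2 (0.87, SE 0.13, adjusted p 1.8e-05). Inpp5d (0.52, SE 0.17, adjusted p 0.0211) and Ptpn6 (0.55, SE 0.17, adjusted p 0.016) were higher as well. At 10 µM 10 of 14 activating genes were lower and 2 higher (median -0.63), with Syk lower by 0.67 (SE 0.13, adjusted p 0.000155), and 7 of 8 inhibitory genes were lower (-0.66). From 0 to 10 µM under the KO label Syk fell by 2.22 (SE 0.13, n 4 and 3, adjusted p 9.29e-14) and Plcg2 by 1.59 (SE 0.18, adjusted p 1.62e-08), while Lcp2 rose by 0.54 (SE 0.12, adjusted p 0.00042). Inpp5d fell by 1.02 (SE 0.16, adjusted p 2.09e-06) and Ptpn6 by 0.79 (SE 0.16, adjusted p 7.47e-05). Among other Fc receptors at 0 µM Fcgrt was higher (0.63, SE 0.15, adjusted p 0.0022) and Fcrl1 lower (-3.06, SE 0.22, adjusted p 4.24e-11).

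Cell state moved as well. From 0 to 10 µM under the KO label 5 of 5 proliferation genes rose (median 4.06), 141, 166 and 196 CPM summed at 0 µM against 2070 to 3030 CPM at 10 µM, and 6 of 9 identity genes fell while Aif1 rose (-0.76). In NTC 5 of 5 proliferation genes rose too (1.36). At 0 µM 4 of 5 were lower under the KO label (-1.99), opposite to the untreated macrophages of the third set. Tyrobp was at the lowest value in every library of this set outside the KO group at 10 µM. Why so many macrophage libraries had no Tyrobp reads was not tested. Fcgr2b, the only member higher under the KO label at every dose without a call turning on replicate 2 at 0.4 µM, was not called between labels in the third set, and the sets were not compared.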

How the data were processed

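The authors quantified reads with kallisto 0.46.0 against the mouse GRCm39 transcriptome and normalized with edgeR, and deposited log2 CPM values for 92 libraries. The submitters' notes also name limma, FastQC and MultiQC. Of 29957 entries, 1 lacks a gene name and 0 value columns were unused. From each set's lowest value and an assumed prior count of 2, depth is 13.7 to 40.6 M reads per set on average, with 17.1 M in the library alone in its set, so values near the lowest are imprecise.

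Within each set a mean per group was fitted to the deposited log2 values with limma 3.58.1 (R 4.3.3; eBayes with trend), for genes with a rebuilt CPM above 1 in at least 3 libraries (6 in the macrophages-and-brain set), and p-values were adjusted over all genes tested by Benjamini and Hochberg. The code was tested on simulated data. Tables and plots used Python 3.11.15, pandas 2.3.3, numpy 2.4.6 and matplotlib 3.10.9.

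Named genes are the 5 members, every gene of the lists and, for each member, the 3 most alike by Pearson correlation in the macrophages-and-brain and the baricitinib sets. The lists are other Fc receptors, activating and inhibitory signalling, macrophage identity, microglia, border macrophages, neutrophils, B cells, NK cells, mast cells and basophils, neurons, oligodendrocytes, astrocytes, endothelium, interferon-stimulated genes, proliferation and the targeted gene. Members and lists were chosen with earlier results of these data known. After the first run 2 genes were taken off the lists and 1 motif off the promoter search, the list counts were computed again, and those items are not reported here.

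Alternatives were an added fold threshold, a pseudocount of 1, no filter, a mean CPM above 5, quantile normalization, medians made equal, only the compared groups, each library left out, library series left out and the replicate block. Library weights and the removal of single libraries that stand apart were added after the values were seen. Whether equally numbered libraries deviate together from their group means was checked, and each pair passed a correlation of 0.1 for ER-Hoxb8 day 4 over day 0 (0.23 to 0.43) and for progenitors labelled Adar1 KO sgRNA 1 over NTC (0.16 to 0.35). The number comes from the labels, which give no shared day or animal. It may mark the separately made ER-Hoxb8 lines. With the replicate block 0 members were called in either comparison.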

Additional observations from a re-analysis of the deposited data

Results flagged for a closer look

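Among 35 sets of member values from groups of at least 4 libraries, 2 held a library standing apart from the rest of its group, and chance alone gives about 1 in 20 groups such a value. Fcgr2b was at 6.91 in sgRNA 2 macrophages replicate 4, with 7.12 as the nearest value among the 5 libraries. Fcgr4 was at 2.57 in BMD MLCs replicate 2, with 3.73 as the nearest among 6.

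Other values stand here because an effect differed between groups. The effect of the Adar1 KO label was larger in macrophages than in progenitors for Fcgr1 (by 1.78) and Fcgr4 (by 1.61). Between 10 and 0 µM baricitinib it was larger at 10 µM for Fcgr2b (by 0.69) and smaller for Fcgr4 (-1.65). Adar RNA goes against the label in these macrophages without drug, so the directions are those of the labels.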

How the results depend on the processing

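Members called are counted here out of 5, and the causes of the changes were not tested. The share of all genes called under each alternative is not given beside these counts. A count that moved therefore does not show a change particular to the members. Over all comparisons 1165 member values were refitted with 1 library left out: 1076 kept their call or lack of one, 79 lost a call, 10 gained one and 0 turned direction with a call. Left-out ranges were 0 to 3 for monocytes over marrow progenitors (4 with all libraries), 4 to 5 for ER-Hoxb8 over marrow progenitors, 0 to 2 for day 4 over monocytes, 1 to 2 for BMD MLCs over BMD macrophages, 2 to 3 for ER-Hoxb8 MLCs over ER-Hoxb8 macrophages and over BMD MLCs, 3 to 5 for microglia over BMD macrophages and 3 to 4 for ER-Hoxb8 MLCs over microglia. They were 1 to 3 for Adar1 KO sgRNA 1 over NTC macrophages, 4 to 5 for macrophages over progenitors labelled KO and 1 to 2 for the difference of the label's effects between cell states. With baricitinib they were 2 to 4 at 0.0006, 0.4 and 10 µM, 4 to 5 at 0.016 µM, 3 to 4 for 10 over 0 µM and 1 to 3 for 0.4 over 0 µM in macrophages labelled KO, and 1 to 2 for the difference of the label's effects between doses. In every other comparison leaving out 1 library of the compared groups did not move the count. A fold threshold of 2 on the log2 scale left 1 call in BMD MLCs over BMD macrophages, in each MLC group over microglia, in ER-Hoxb8 over BMD MLCs and in KO over NTC at 0 and 0.0006 µM, 2 in ER-Hoxb8 MLCs over ER-Hoxb8 macrophages, in microglia over BMD macrophages, at 0.016 µM and for 10 over 0 µM under the KO label, 4 for the step of sgRNA 2 cells, and 0 in KO over NTC macrophages, at 0.4 and 10 µM, in 0.4 over 0 µM under the KO label and in both differences of the label's effects. Library weights, added after the values were seen, gave 5 for monocytes over marrow progenitors, 3 for day 4 over monocytes, for BMD MLCs over BMD macrophages and for 0.4 over 0 µM under the KO label, 2 for ER-Hoxb8 over BMD macrophages, for ER-Hoxb8 MLCs over ER-Hoxb8 macrophages and for the difference between brain effects, 4 for KO over NTC at 0 µM, for 10 over 0 µM under the KO label and for the difference between doses, and 1 for 10 and for 0.4 over 0 µM in NTC; at 0.4 µM they called Fcgr3 in place of Fcgr1. The replicate block, where labels share only a number, gave 5 for monocytes over marrow progenitors and for NTC macrophages over progenitors, 3 for ER-Hoxb8 over marrow progenitors, for microglia over BMD macrophages and at 10 µM, 2 for day 4 over monocytes, for ER-Hoxb8 MLCs over ER-Hoxb8 macrophages and over microglia and for 10 over 0 µM under the KO label, 1 for BMD MLCs over BMD macrophages, for ER-Hoxb8 over BMD MLCs and for 10 over 0 µM in NTC, 4 at 0 µM, and 0 at 0.4 µM and for 0.4 over 0 µM under the KO label, and in the difference between doses it called Fcgr1 in place of Fcgr2b. Fitting the compared groups alone gave 4 for ER-Hoxb8 over marrow progenitors, for microglia over BMD macrophages and at 0 µM, 2 for ER-Hoxb8 MLCs over ER-Hoxb8 macrophages, 5 for NTC macrophages over progenitors, 3 at 10 µM and for the difference between doses, 1 for the difference between brain effects, at 0.4 µM and for 10 over 0 µM in NTC, and 0 for 0.4 over 0 µM under the KO label. No filter gave 3 for monocytes over marrow progenitors and at 0.4 µM, 4 for microglia over BMD macrophages, 1 for BMD MLCs over BMD macrophages and for 0.4 over 0 µM under the KO label, and 2 at 0.0006 and at 10 µM. Equal medians gave 1 for BMD MLCs over BMD macrophages and for 0.4 over 0 µM under the KO label, 4 for microglia over BMD macrophages and 2 for ER-Hoxb8 over BMD MLCs. A pseudocount of 1 gave 3 for monocytes over marrow progenitors and at 10 µM, 4 for microglia over BMD macrophages, and 1 for BMD MLCs over BMD macrophages and for the difference between brain effects. Quantile normalization ended 6 calls and made 7, giving 3 for BMD MLCs over BMD macrophages, at 0 and 0.4 µM and for the difference between doses, 4 for microglia over BMD macrophages, at 0.0006 and 0.016 µM and for 10 over 0 µM under the KO label, and 5 for NTC macrophages over progenitors, with Fcgr3 called in place of Fcgr2b for 0.4 over 0 µM under the KO label. A mean CPM above 5 changed 0 of 140 member calls. With the GFPHox libraries only, ER-Hoxb8 MLCs had 2 called over ER-Hoxb8 macrophages, over microglia and over BMD MLCs, and with the WTHox libraries only no call changed. Without BMD macrophage replicate 3 BMD MLCs over BMD macrophages gave 1 and microglia 4, without microglia replicate 8 the difference between brain effects gave 1 and ER-Hoxb8 MLCs over microglia 4, as it did without microglia replicates 8 and 9, and without ER-Hoxb8 progenitor replicate 3 no call changed. Without the library labelled KO 0.4 µM replicate 2 the counts were 4 at 0 µM and for 10 over 0 µM under the KO label, 2 at 0.4 µM, 3 for 0.4 over 0 µM under the KO label and for the difference between doses, and 1 for 10 over 0 µM in NTC. Assumed mean depth per set runs from 13.7 to 40.6 M reads, and the member values nearest the lowest of their set are Fcgr4 in microglia replicate 8 and Fcgr1 and Fcgr4 in marrow progenitor replicate 1. Groups of 2 or 3 libraries, sets that cannot be compared, the labels' unknown pairing and RNA without protein limit every result here.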

Other observations

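The NTC macrophage library that sits alone in its set (lowest value -3.09) had Fcgr1 at 6.33, Fcgr2b at 8.34, Fcgr3 at 10.19, Fcgr4 at 4.94, Fcer1g at 10.99 and Adar at 5.86. These values belong to no comparison, because no other library shares its lowest value.

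Progenitors labelled NTC or Adar1 KO sgRNA 1 held much neutrophil-granule RNA, with Mpo the most abundant gene: the neutrophil list summed 16900, 19200 and 25200 CPM in NTC and 12200, 12400 and 18200 CPM under the KO label. In the set of its own, sgRNA 2 progenitors summed 2310, 2610 and 2840 CPM, and these figures are levels within separate sets. Fcrls, an Fc receptor-like gene of microglia, was the most abundant of the other Fc receptors in microglia and in BMD MLCs, with medians of 939 and 876 CPM.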
